A study of Mus musculus with 6 samples.

Results

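The AP-1 and Egr immediate-early genes described here are Fos, Fosb and Fosl2, the Jun genes Jun, Junb and Jund, the zinc-finger genes Egr1 and Egr2, and Atf3 and Ier2. They were taken by gene symbol: every probe set that the platform annotation assigns to 1 of these 10 symbols alone was used, which gave 14 of the 45037 probe sets that are not controls. Of these, 9 probe sets, representing 7 of the 10 genes, were bright enough to be tested among 27022 probe sets in all; Fosb, Egr2 and Atf3 were too dim and are given as signals only. The 6 Affymetrix arrays carried RNA of islets of Langerhans, the endocrine part of the pancreas, from wild-type male OF-1 offspring at postnatal day 30. Between gestation days 9 and 16 their mothers were given vehicle, or 10 or 100 µg/kg/day of bisphenol-A, a building block of plastics that binds estrogen receptors weakly, which gives 3 groups of 2 arrays called vehicle, BPA10 and BPA100. Vehicle replicate 1 carried RNA of 5 mice and BPA10 replicate 2 RNA of 2 mice, while the other 4 arrays carried RNA of 1 mouse each. The labels do not name litters, so p-values measure only the spread between these arrays. In whole islets, fewer cells of a type and less RNA per cell cannot be told apart.

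Immediate-early genes are switched on within minutes of a stimulus, from transcription factors already present in the cell and without new protein synthesis, and their short-lived RNAs decay soon after. Fos proteins pair with Jun proteins through a leucine zipper to form the transcription factor AP-1, Jun proteins also pair with each other, and Egr proteins bind GC-rich sites through zinc fingers. In beta cells, glucose and agents that raise calcium or cyclic AMP are known inducers, and in many tissues the same genes are also known to respond to dissociation and handling.

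Promoters are where such stimuli act, so the 250 bases before the annotated start are shown for Fos, Jun and Junb, whose signals were lower together on the BPA100 arrays, and for Jund, whose signal was level on all arrays. The sequences are from RefSeq (GRCm38.p6), 5′ to 3′ on the gene's strand, and 8 of the 10 genes had an entry. Egr1 and Ier2 had none, so their promoters could not be searched. The windows are chr12:85473640-85473889 (plus strand) for Fos, chr4:95052223-95052472 (minus strand) for Jun, chr8:84978749-84978998 (minus strand) for Junb and chr8:70697489-70697738 (plus strand) for Jund. Capitals mark matches, on either strand, to TGACG (the core of the cyclic AMP response element), TGACGTCA (the full element, which contains that core), TGANTCA (the AP-1 site), TGACATCA (the variant AP-1 site known from the Jun promoter, added to the search after the window was seen), GCGNGGGCG (an Egr site), TATAAA and the CArG box bound by serum response factor.
Fos: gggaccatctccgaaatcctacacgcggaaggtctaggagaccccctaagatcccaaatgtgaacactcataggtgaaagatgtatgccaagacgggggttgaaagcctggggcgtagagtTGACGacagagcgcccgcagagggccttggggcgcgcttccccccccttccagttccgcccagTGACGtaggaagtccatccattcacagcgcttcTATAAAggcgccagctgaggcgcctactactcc
Jun: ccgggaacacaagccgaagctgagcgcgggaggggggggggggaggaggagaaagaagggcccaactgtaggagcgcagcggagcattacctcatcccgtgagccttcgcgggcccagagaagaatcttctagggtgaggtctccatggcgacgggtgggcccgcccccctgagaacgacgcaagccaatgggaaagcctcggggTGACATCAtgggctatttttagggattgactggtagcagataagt
Junb: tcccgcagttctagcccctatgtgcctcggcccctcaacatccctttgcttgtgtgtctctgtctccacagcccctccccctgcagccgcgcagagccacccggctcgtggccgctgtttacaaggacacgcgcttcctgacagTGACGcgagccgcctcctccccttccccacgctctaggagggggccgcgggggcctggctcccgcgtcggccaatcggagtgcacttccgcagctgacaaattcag
Jund: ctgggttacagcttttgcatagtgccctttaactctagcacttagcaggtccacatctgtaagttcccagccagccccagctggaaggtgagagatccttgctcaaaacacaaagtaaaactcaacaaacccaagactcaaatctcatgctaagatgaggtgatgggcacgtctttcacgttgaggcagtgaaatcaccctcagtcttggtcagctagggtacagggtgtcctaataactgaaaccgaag
The Fos window held TGACG at 129 and 66 bases before the start and TATAAA at 33 bases. The Junb window held 1 TGACG, at 106 bases, and the Jun window held TGACATCA at 45 bases. The Jund window held none of the 7 patterns. Only these 250 bases were searched, so a pattern missing from a window may lie further upstream. Over all 32851 promoter windows of this length, 17.8% held TGACG, 1.55% TGACGTCA, 2.93% TGACATCA, 6.75% TGANTCA, 4.70% GCGNGGGCG, 12.4% TATAAA and 1.47% a CArG box. Fosl2 held GCGNGGGCG at 79 bases. Among the dim members, Fosb held TGACG and GCGNGGGCG at 60 and 50 bases, and Atf3 held TGACG at 7 bases. Of the 5 Egr2 start sites, 4 had a CArG box, but those at 72, 73 and 133 bases from 3 neighbouring starts are 1 and the same box, as are the matches to TGACG in these 3 overlapping windows. A match describes letters in this window and is not evidence of binding. The windows shown were picked by the signals of their genes, and a link between matches and signals was not tested.

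Fos, Egr1, Jun and Ier2 followed one order of arrays, with vehicle replicate 1 and BPA10 replicate 1 highest, vehicle replicate 2 between, and BPA10 replicate 2 and both BPA100 arrays lowest. Junb was low on the same 3 arrays but highest on both vehicle arrays. Jund and the brighter Fosl2 probe set varied less. Levels are deposited signals (linear), and differences are of group means of log2(signal + 1), where the added 1 makes differences of dim probe sets too small. Differences are given ± the standard error (SE) of limma, fitted on all 6 arrays, with 2 arrays per group and Benjamini-Hochberg adjustment over the 27022 probe sets. The probe sets of different genes differ in how well they bind, so levels are compared between arrays and not between genes.

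**Figure D1:**
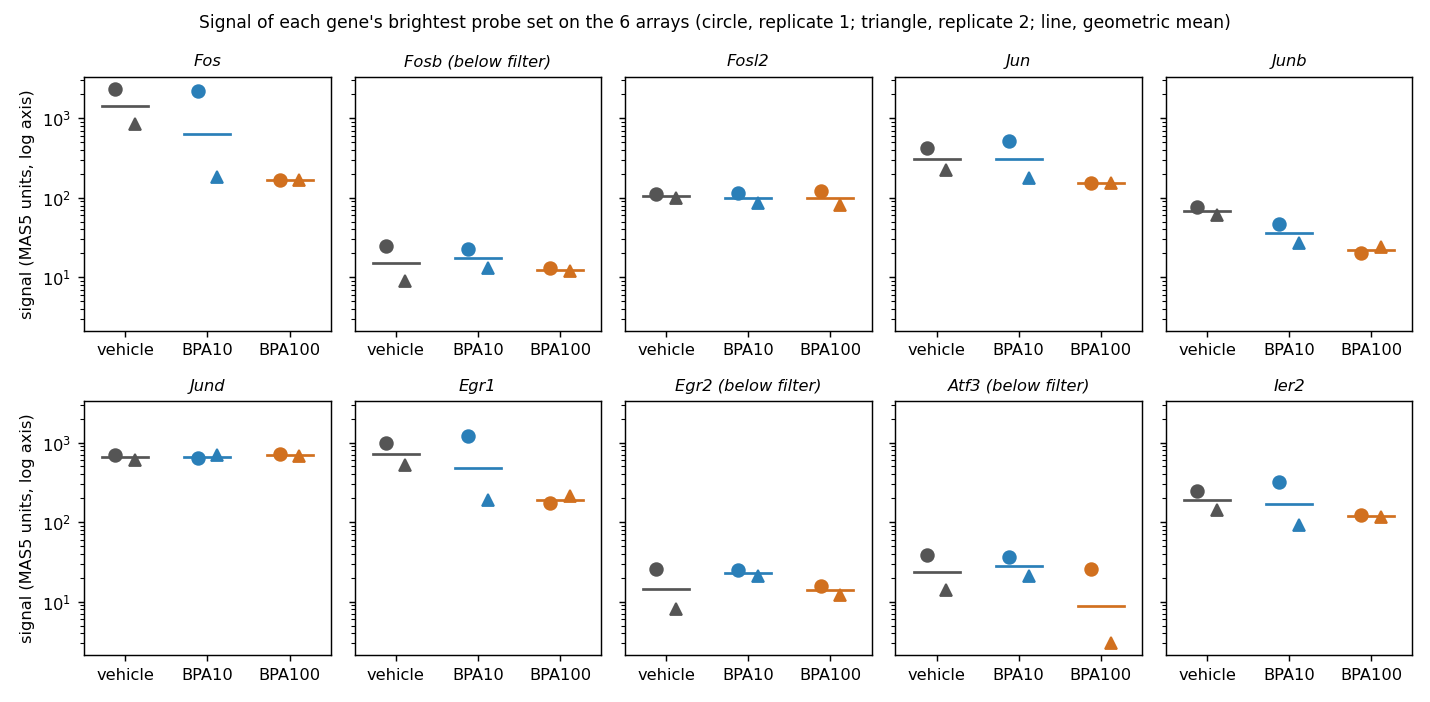
Signal of the brightest probe set of each of the 10 genes on the 6 arrays (log axis, MAS5 units), with circles for replicate 1, triangles for replicate 2 and lines for the geometric mean of each group. Fos, Jun, Egr1 and Ier2 split between the 2 BPA10 arrays and sit together and low on the BPA100 arrays, while Jund stays between 611 and 728.

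Fos measured 2349 and 841 in vehicle, 2165 and 183 in BPA10, and 165 and 168 in BPA100. Both BPA100 arrays lay below every other array, and the BPA10 arrays spanned the range between the highest vehicle array and the BPA100 level. The mean log2 level was 10.46 ± 1.05 (SD, n = 2) in vehicle, 9.30 ± 2.52 in BPA10 and 7.39 ± 0.02 in BPA100. From highest to lowest array the range was 14.2-fold, rank 59 among all probe sets tested when measured on the log2 scale. Fosb, a second Fos protein that also forms AP-1, was below the brightness limit, with signals of 25 and 9, 23 and 13, and 13 and 12 in vehicle, BPA10 and BPA100. Fosl2, the Fos-related antigen Fra-2, measured 111 and 100, 116 and 87, and 122 and 81 on its brighter probe set, and the groups overlapped. Its dimmer probe set, at 40 and 15, 11 and 28, and 34 and 32, did not follow the brighter one.

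Jun, the partner of Fos in AP-1, measured 420 and 226 on the vehicle arrays, 513 and 179 on the BPA10 arrays, and 155 and 153 on the BPA100 arrays. Its second probe set gave 184 and 130, 276 and 119, and 116 and 96, so both placed BPA10 replicate 1 highest and the BPA100 arrays lowest. Junb, which pairs with Fos but is a weaker activator than Jun, measured 77 and 60, 47 and 27, and 20 and 24. Its 3 groups did not overlap, with vehicle highest and BPA100 lowest, but its signal was close to the brightness limit of about 23.3 on the BPA100 arrays. Jund, which is generally kept at a steady level in resting cells, measured 693 and 611, 638 and 690, and 728 and 684. Its range over the 6 arrays was 1.19-fold, smaller than that of most probe sets (rank 25129 of 27022). The second Jund probe set lay below the limit, at 5 to 25.

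Egr1, a zinc-finger factor induced by growth signals and by glucose in beta cells, measured 988 and 521 on the vehicle arrays, 1222 and 189 on the BPA10 arrays, and 173 and 211 on the BPA100 arrays. Its highest array was BPA10 replicate 1, and BPA10 replicate 2 lay between the BPA100 arrays. The mean log2 level was 9.49 ± 0.65 (SD, n = 2) in vehicle, 8.91 ± 1.90 in BPA10 and 7.59 ± 0.20 in BPA100. Egr2, best known for myelination and hindbrain patterning, was dim: 26 and 8, 25 and 21, and 16 and 12 on 1 probe set, and 2 to 21 on the other. Atf3, a stress-induced repressor of the same leucine-zipper class, was dim as well, at 39 and 14, 37 and 21, and 26 and 3. Ier2, an immediate-early nuclear protein, measured 246 and 144, 317 and 91, and 123 and 117, with BPA10 replicate 2 the lowest array.

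For Fos, Egr1, Ier2, Jun and Junb, the 2 arrays of a group differed most in BPA10. Fosl2 differed most between the BPA100 arrays and Jund between the vehicle arrays. Fos was 11.8-fold higher on BPA10 replicate 1 than on replicate 2, and only 4 of the 27022 probe sets differed more between those arrays (rank 5). Egr1 was 6.47-fold higher (rank 38), Ier2 3.48-fold (rank 209) and Jun 2.87-fold (rank 364). Of the 7 genes tested, 4 differed by more than 1 on the log2 scale between the BPA10 arrays, against 5.22% of all probe sets. Between the vehicle arrays this held for 1 of 7, Fos at 2.79-fold, against 3.93%, and between the BPA100 arrays for 0 of 7, against 3.91%. All 7 genes were higher on vehicle replicate 1 than on replicate 2, while replicate 1 was higher for 6 of 7 in BPA10 and 4 of 7 in BPA100. The median signal over all probe sets was also higher on vehicle replicate 1, at 39 against 35. The shares of all probe sets that were higher on replicate 1 were not computed. On the BPA100 arrays Fos differed by 1.02-fold and Jun by 1.01-fold.

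**Figure D2:**
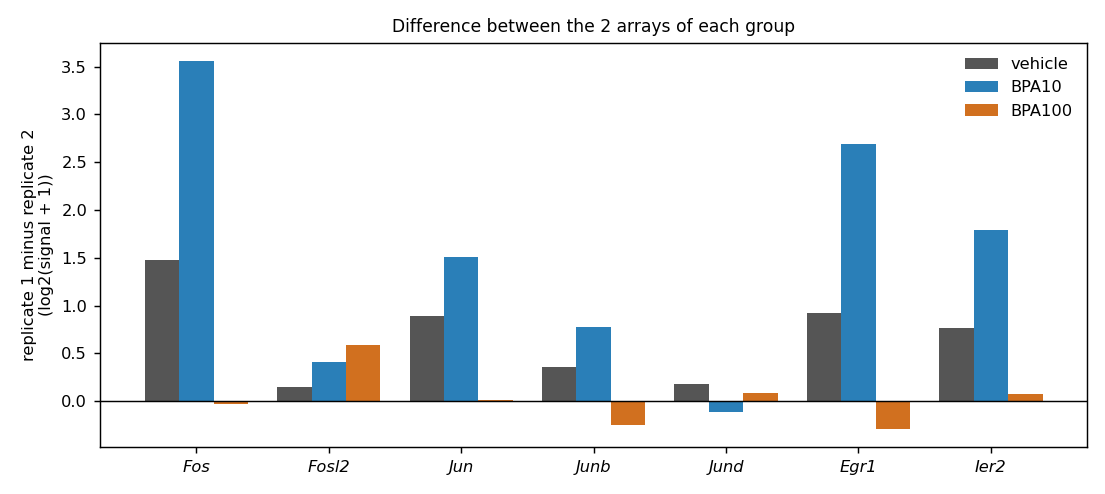
Difference between replicate 1 and replicate 2 of each group (log2(signal + 1)) for the 7 tested genes, with bars above 0 where replicate 1 is higher. The BPA10 bars of Fos, Egr1, Ier2 and Jun exceed 1, while the BPA100 bars stay within 0.59 of 0.

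In BPA100 against vehicle, 6 of the 7 genes had lower means, against 50.8% of all probe sets, and Jund a slightly higher one. This comparison and that of BPA10 use the same 2 vehicle arrays. Fos differed by -3.07 ± 0.95 (adjusted p = 1), a geometric mean 8.40-fold lower, the difference of rank 7 in size over all probe sets. Egr1 differed by -1.90 ± 0.71 (adjusted p = 1), or 3.74-fold lower, and Junb by -1.59 ± 0.36 (adjusted p = 0.922), or 3.01-fold lower. Jun differed by -0.996 ± 0.45 and Ier2 by -0.65 ± 0.50. Both BPA100 arrays lay below both vehicle arrays for Fos, Jun, Junb, Egr1 and Ier2, 5 of 7 genes, against 15.8% of all probe sets, and above them for 0, against 16.1%. At an unadjusted p under 0.05 in limma, 3 genes were lower, Fos, Junb and Egr1, against 1.87% of all probe sets, and 0 higher, against 2.11%. None of the 7 passed the adjusted threshold of 0.05, as 0% of all probe sets did, with 505 lower and 570 higher at an unadjusted p under 0.05. The median over the 7 genes was -0.996, beside -0.0047 over all probe sets. Fosl2 differed by -0.08 (95% interval -0.67 to 0.51) and Jund by 0.12 (-0.19 to 0.42). The second probe sets of Fosl2 and Jun, not counted above, differed by 0.41 and -0.55. The dim Atf3, Fosb and Egr2 differed by -1.24, -0.26 and -0.07 without a test, and their groups overlapped.

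The differences of Fos, Egr1, Jun and Ier2 rest on unequal spreads, since for these genes the BPA10 arrays lie far apart and the BPA100 arrays close together. With only the 4 vehicle and BPA100 arrays in the limma fit, Fos had an adjusted p = 0.387 and Egr1 an adjusted p = 0.524, and 5 of 7 genes were lower at an unadjusted p under 0.05, against 2.04% of all probe sets in that fit. With the spread estimated robustly it was 1, Junb, against 1.89%, and without vehicle replicate 1 it was again 1, Junb, against 1.65%. Without that array the limma differences were -2.33 for Fos, -1.44 for Egr1, -0.55 for Jun, -0.26 for Ier2 and -1.41 for Junb, and the median over the 7 genes was -0.55. Jun, Ier2 and the median thus moved by over 1.5 times. Without vehicle replicate 2, Ier2 differed by -1.03, and the median was -1.44. Permuting the labels of 2 arrays against 2 cannot give an exact 2-sided p below 0.333.

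**Figure D3:**
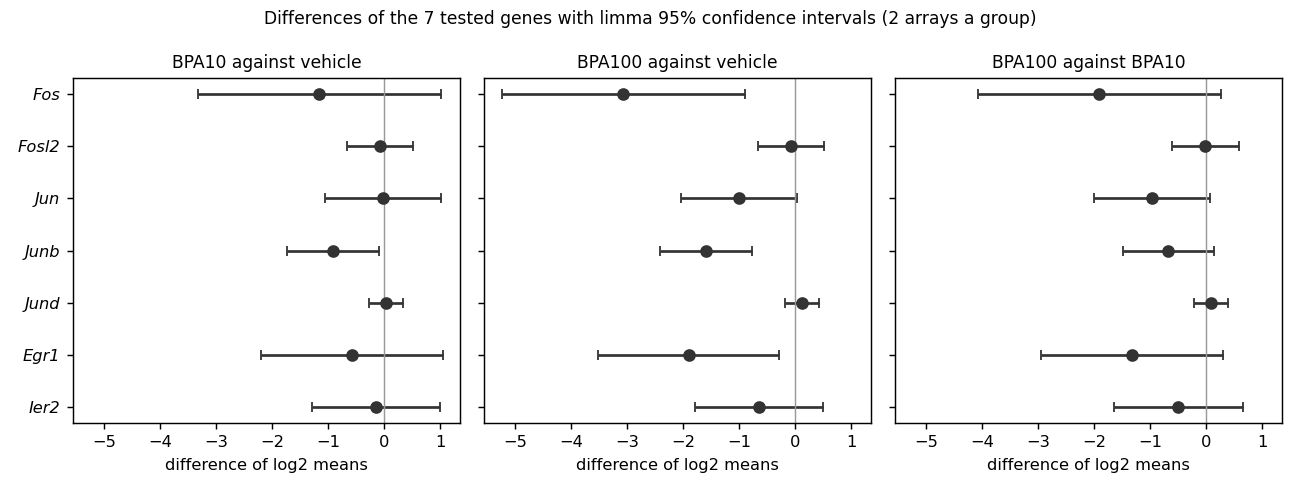
Differences of group means of log2(signal + 1) for the 7 tested genes in the 3 comparisons, with 95% confidence intervals of limma (2 arrays per group). The intervals of Fos, Junb and Egr1 lie below 0 in BPA100 against vehicle, that of Junb in BPA10 against vehicle, and in BPA100 against BPA10 all 7 include 0.

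In BPA10 against vehicle, 6 of the 7 genes had lower means, against 49.9% of all probe sets, most by little. Of the second probe sets, not counted here, that of Jun was higher (0.23) and that of Fosl2 lower (-0.46). Junb was lower, 47 and 27 against 77 and 60 (-0.91 ± 0.36, adjusted p = 0.686 in limma), the single gene of 7 at an unadjusted p under 0.05 and lower, against 3.96% of all probe sets, while 0 were higher, against 3.12%. It was also the 1 gene of 7 whose BPA10 arrays both lay below the vehicle arrays, against 18.6%, and for 0 genes did both lie above, against 17.5%. Junb differed by -0.73 without vehicle replicate 1 and by -1.09 without vehicle replicate 2. It differed by -1.30 without BPA10 replicate 1, by -0.52 without BPA10 replicate 2 and by -0.35 with only arrays of 1 mouse. Each of these fits left at least 1 group with 1 array. Fos differed by -1.16 ± 0.95, Egr1 by -0.58 ± 0.71, Ier2 by -0.15 ± 0.50, Jun by -0.02 ± 0.45, Fosl2 by -0.07 ± 0.26 and Jund by 0.03 ± 0.13, each with an adjusted p in limma between 0.843 and 0.994. The interval for Fos ran from -3.32 to 1.01 and that for Jun from -1.06 to 1.01. None of the 7 passed the adjusted threshold, as 0% of all probe sets did, with 1070 lower and 844 higher at an unadjusted p under 0.05 in limma. The sign turned with the array left out: without BPA10 replicate 1, the RNA of 1 mouse, Fos differed by -2.93 and Egr1 by -1.92, and without replicate 2, the RNA of 2 mice, by 0.62 and 0.77. Without vehicle replicate 1, Jun and Ier2 turned to 0.42 and 0.24. With only arrays of 1 mouse, 4 arrays in all, Fos, Egr1, Jun and Ier2 were higher in BPA10, by 1.36, 1.23, 1.18 and 1.13 (limma adjusted p = 0.596 for each), where BPA10 and vehicle then had 1 array each and borrowed their spread from the BPA100 pair.

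In BPA100 against BPA10, which shares the BPA10 and BPA100 arrays with the comparisons above, Fos differed by -1.91 ± 0.95, Egr1 by -1.33 ± 0.71, Jun by -0.97 ± 0.45, Junb by -0.68 ± 0.36 and Ier2 by -0.50 ± 0.50 (limma adjusted p = 0.964 for the first 4). The BPA100 arrays lay below both BPA10 arrays for Fos, Jun and Junb, 3 of 7 genes, against 15.0% of all probe sets, and above both for 0, against 15.7%. The dimmer Fosl2 probe set, tested but not counted here, was higher on both BPA100 arrays (0.87 ± 0.58). The means of 6 of 7 were lower, against 49.4%. No gene of the 7 was lower at an unadjusted p under 0.05, against 2.31% of all probe sets, or higher, against 2.44%, and none passed after adjustment, as 0% of all probe sets did (limma, 624 lower and 659 higher at an unadjusted p under 0.05). Without BPA10 replicate 1, 3 of 7 had lower means, Fos at -0.14, Jun at -0.22 and Junb at -0.29, with Egr1 at 0.02 and Ier2 at 0.39. Without BPA10 replicate 2, the RNA of 2 mice, 5 of 7 were lower at an unadjusted p under 0.05, against 3.95% of all probe sets in that fit, with Fos at -3.69, Egr1 at -2.67, Jun at -1.73, Ier2 at -1.39 and Junb at -1.07.

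In BPA100 against vehicle, the medians of the other pathway lists lay nearer 0 than that of the 7 genes. In this comparison 50.8% of all probe sets were lower. With an unadjusted p under 0.05 in limma, 1.87% were lower and 2.11% higher. Every list count below is to be read beside these shares. Of 21 other AP-1 and related leucine-zipper genes, 17 were tested, with 12 lower and 5 higher in BPA100 than in vehicle and a median of -0.10. At an unadjusted p under 0.05 in limma, 2 were lower, Cebpd, a CCAAT-binding factor of acute responses (230 and 218 against 108 and 143, -0.84 ± 0.19), and Atf4, the translation-stress factor (-0.31 ± 0.13). Maf and Ddit3 differed by -0.45 and -0.34. Of the Egr partners, only Nab1, a corepressor of Egr proteins, was bright enough to be tested, at 587 and 505, 747 and 647, and 719 and 551 in vehicle, BPA10 and BPA100. Egr3, Egr4 and Nab2 lay below the limit, with signals between 5 and 43.

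Among 16 other immediate-early regulators, 15 were tested, 11 were lower and 4 higher in BPA100 than in vehicle, with a median of -0.09. The orphan nuclear receptor Nr4a1 measured 192 and 334 on the vehicle arrays, 125 and 64 on the BPA10 arrays and 95 and 94 on the BPA100 arrays, so unlike Fos its highest array was vehicle replicate 2. It differed by -1.41 ± 0.35 in BPA100 and -1.49 ± 0.35 in BPA10 (limma, adjusted p = 1 and adjusted p = 0.471). Nr4a2 differed by -0.63 in BPA100, and Klf4, a Krüppel-like factor, by -0.45. Nfil3, a leucine-zipper repressor, was higher in the BPA groups: 136 and 119 in vehicle, 169 and 210 in BPA10, and 220 and 240 in BPA100 (0.85 ± 0.18 in BPA100 against vehicle, limma, adjusted p = 0.908). Of 29 feedback and effector genes, 28 were tested, 20 were lower and 8 higher in BPA100, with a median of -0.14. Over all probe sets 50.8% were lower. Of the 28, 1 was lower at an unadjusted p under 0.05 in limma, against 1.87% of all probe sets. It was the stress-response gene Gadd45g (708 and 612 against 418 and 367, -0.75 ± 0.18). Trib1, Dusp2 and Socs3 differed by -0.47, -0.61 and -0.49.

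Upstream kinases and serum response factors carry the stimulus to these promoters. Of 28 listed genes, 20 were found and tested, 10 lower and 10 higher in BPA100 than in vehicle, with a median of 0.02 and 0 at an unadjusted p under 0.05 in limma. Elk1, a partner of serum response factor, differed by -0.69, the cyclic AMP coactivator Crtc1 by -0.43, the kinase genes Mapk10 and Map2k1 by 0.18 and 0.22. Of 16 genes described as AP-1 targets, 12 were tested, 6 lower and 6 higher in BPA100, with a median of 0.13. The metallothionein gene Mt2 was the 1 target higher there at an unadjusted p under 0.05 in limma (0.55 ± 0.19), against 2.11% of all probe sets. Mt1 differed by 0.45, Ccnd1 by 0.27 and Tgfb1 by 0.79. Mt1 and Mt2 were higher in BPA10, by 1.13 each. In all these lists 0 genes passed over all probe sets in limma.

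**Figure D4:**
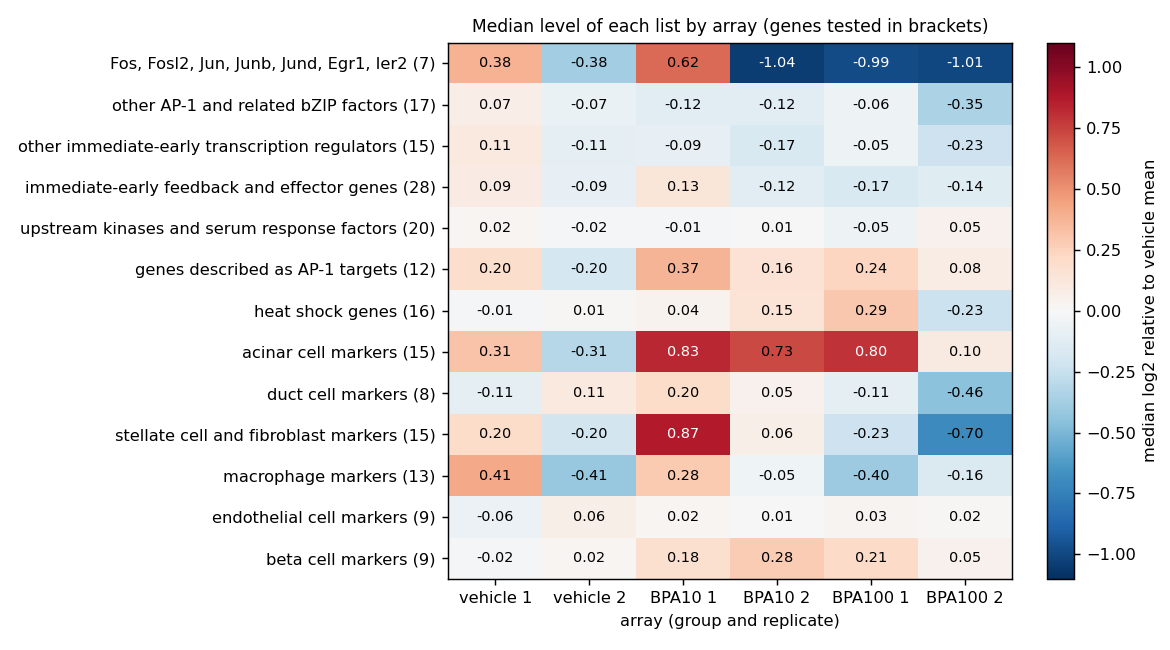
Median of gene lists on each array, in log2(signal + 1) relative to the mean of the vehicle arrays, with the number of genes tested in brackets. The Egr partners, the Schwann cell markers and the markers of alpha, delta and PP cells are not drawn. The 7 AP-1 and Egr genes lie near -1 on BPA10 replicate 2 and both BPA100 arrays. On these arrays the other bZIP, immediate-early regulator and feedback lists lie between -0.35 and -0.05.

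Heat shock genes, which are also known to respond to tissue handling, were split. Of 18 listed, 16 were tested, 7 lower and 9 higher in BPA100 than in vehicle, with a median of 0.01. The inducible Hspa1b measured 535 and 595 on the vehicle arrays, 368 and 233 on the BPA10 arrays and 157 and 155 on the BPA100 arrays (-1.85 ± 0.22, limma, adjusted p = 0.200), and Hspa1a 217 and 144, 182 and 109, and 61 and 52 (-1.63 ± 0.30). On the 3 arrays with low Fos these 2 genes were also at their lowest. Both were picked by their small p in BPA100 against vehicle, so their BPA100 values were part of the choice. The median of the 16 tested, relative to the vehicle mean, was 0.15 on BPA10 replicate 2 and 0.29 and -0.23 on the BPA100 arrays. A part of handling was not tested. Dnajb1, a cochaperone of Hsp70, differed by -0.69 and did not follow Fos: it measured 514 and 493 in vehicle, 261 and 290 in BPA10, and 289 and 334 in BPA100, lowest on BPA10 replicate 1. Hspa4l differed by 0.53.

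Markers of other cell types differed between the arrays as well, and their part in the results above was not tested. In BPA100 against vehicle, 50.8% of all probe sets were lower. For macrophages, 13 of 14 markers were tested, 10 lower and 3 higher in BPA100 than in vehicle. Their summed signal was 5683 and 2437 in vehicle, 4109 and 2786 in BPA10 and 2202 and 2847 in BPA100, high on the same 2 arrays as Fos. Csf1r and Ctss, the brightest of them, measured 701 and 447 and 738 and 426 in vehicle, 796 and 549 and 813 and 602 in BPA10, and 455 and 534 and 458 and 922 in BPA100. For stellate cells and fibroblasts, all 15 were tested, 14 lower and 1 higher, with summed signals of 10808 and 9301, 15690 and 9860, and 8933 and 6524, and the collagen gene Col3a1 and the matrix gene Sparc brightest. For acinar cells, which secrete digestive enzymes, 15 of 18 were tested, 1 lower and 14 higher, with sums of 92574 and 59585, 126587 and 118485, and 122586 and 79107, led by Prss2 and Cela3b. Duct markers, led by Epcam and Krt8, summed to between 6805 and 8999. Of 8 tested, 7 were lower and 1 higher in BPA100 than in vehicle, with a median of -0.30. Endothelial markers, led by Plvap and Emcn, summed to between 4018 and 4418, with 5 lower and 4 higher of 9 tested. Schwann cell markers, led by Cdh19 and Sox10, summed to between 218 and 364, with 3 lower and 1 higher of 4 tested. The islet's own cells were plainly present: 9 beta-cell markers, led by Iapp and G6pc2, summed to between 37146 and 45796, and 6 markers of alpha, delta and PP cells, led by Ttr and Ppy, to between 35477 and 48135. No marker of these lists was listed at 0 on any array.

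The arrays were alike in overall measures. Median signals lay between 33 and 40, and Pearson's correlation over the tested probe sets, a description of pairs of arrays, was 0.968 for each of the 3 pairs of arrays of a group and between 0.945 and 0.975 for the 12 other pairs, so arrays of a group were not always the most alike. The ratio of 3′ to 5′ signal, a measure of RNA integrity and amplification, lay between 1.62 and 1.72 for the beta-actin control and between 0.657 and 0.887 for the Gapdh control. For beta-actin the ratio was 1.63 on BPA10 replicate 1 and 1.71 on replicate 2, and for Gapdh 0.841 and 0.887.

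The genes whose profile over the 6 arrays was most like the mean profile of the 7 tested genes were sought among 12561 other named genes, with likeness as the root mean square difference of centred log2 values. The mean profile stood at 0.86 and 0.19 on the vehicle arrays, 0.88 and -0.64 on the BPA10 arrays, and -0.63 and -0.66 on the BPA100 arrays. The 8 nearest were Strc, Mall, Col12a1, Pilrb1, Dydc2, Hpse, Ccdc184 and Cd14, at distances from 0.233 to 0.319. Their signals lay between 15 and 133, so they were dim, and Cd14, the lipopolysaccharide coreceptor, is also among the macrophage markers. Among the members themselves Jun (0.169), Ier2 (0.229) and Junb (0.331) lay near the mean profile, Egr1 at 0.476, Fosl2 at 0.597, Jund at 0.726 and Fos, with its larger range, at 1.01. Each member is part of that mean, which shortens its distance, so these values do not compare with those of the 8 nearest genes. A gene with no variation at all would lie at 0.681. The list is a description.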

How the data were processed

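For each array the authors deposited linear MAS5 intensities, as named in the submitters' processing notes; its version is not given in the sources used here. Every array's mean, with 2% trimmed at each end, was 150, read from the values. The labels' protocols state 2 cycles of cDNA synthesis from 150 ng of RNA. Of 45101 probe sets, 64 controls were left out. In the platform annotation 34945 probe sets have a single gene symbol, 932 have more than 1, and 9160 have none. All 14 probe sets of the members matched a RefSeq identifier.

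Values were taken as log2(signal + 1). Probe sets with a mean at or above the 40th percentile, a geometric mean signal of 23.3, were tested: 27022 probe sets of 13193 genes. limma 3.58.1 in R 4.3.3 (lmFit, eBayes with an intensity trend; 3 residual and 5.4 prior degrees of freedom) was fitted with 3 group means, 2-sided, with Benjamini-Hochberg adjustment and a threshold of 0.05. It was tested on simulated data. Each gene is represented by its brightest tested probe set. The members and the 16 gene lists (236 entries, 213 found, 4 through a synonym) were chosen with earlier results of these data known. Named are all members, the 4 Egr partners, the 4 genes of each other pathway list with the smallest p in BPA100 against vehicle, the 2 brightest of each marker list, and the 8 nearest profiles. Alternatives were quantile normalization, median centring, a pseudocount of 16, no filter, the 60th percentile, no trend, a robust spread, only the groups compared, the replicate number as a block, averaging a gene's tested probe sets, only arrays of 1 mouse, and leaving out each array.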

Additional observations from a re-analysis of the deposited data

How the results depend on the processing

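None of the 7 tested genes passed the adjusted threshold in any of the 3 comparisons under any alternative run. Of 207 gene differences recomputed with no array left out one by one, 200 kept their sign and 7 turned. In BPA10 against vehicle these were Jun after median centring (4.5e-05) and, with only arrays of 1 mouse, Fos (1.36), Fosl2 (0.21), Jun (1.18), Egr1 (1.23) and Ier2 (1.13), which took the median of the members from -0.15 to 1.13. In BPA100 against BPA10 it was Fosl2 after quantile normalization (0.0056). With only arrays of 1 mouse, BPA10 against vehicle is BPA10 replicate 1 against vehicle replicate 2 alone. What sets these arrays apart was not tested. The main differences of Jun in BPA10 against vehicle and Fosl2 in BPA100 against BPA10 lay near 0, at -0.023 and -0.015. With 1 array left out, 69 of 84 kept their sign. In BPA10 against vehicle the range was -2.93 to 0.62 for Fos, -1.92 to 0.77 for Egr1, -0.78 to 0.73 for Jun, -1.04 to 0.75 for Ier2, -0.27 to 0.14 for Fosl2, -0.063 to 0.12 for Jund, -1.30 to -0.52 for Junb and -1.04 to 0.62 for the median. In BPA100 against vehicle it was -0.38 to 0.21 for Fosl2 and -1.44 to -0.55 for the median, and in BPA100 against BPA10 it was -0.31 to 0.28 for Fosl2, -2.67 to 0.016 for Egr1 and -1.39 to 0.39 for Ier2. The number of all probe sets past the adjusted threshold, 0 in each comparison, ranged from 0 to 9 in BPA10 against vehicle, 0 to 5 in BPA100 against vehicle and 0 to 1 in BPA100 against BPA10 with 1 array left out. With only the groups compared it was 1 and 4 in the comparisons with vehicle, and in BPA100 against vehicle it was 6 after median centring.

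The labels give all groups the replicate numbers 1 and 2, but nothing states that a number marks a shared animal, litter or day. Deviations from the group means correlated over 27022 probe sets at 0.194 between vehicle and BPA10, 0.199 between vehicle and BPA100 and 0.080 between BPA10 and BPA100. With the replicate number as a block, 7 probe sets passed in BPA100 against vehicle and 0 in the other comparisons, and no member passed. Counts of members lower at an unadjusted p under 0.05, an alternative chosen after seeing the data, moved from 0 to 3 in BPA100 against BPA10 with the block and with median centring, where the share of all probe sets was 4% and 2.37%, beside 2.31% without either. Mean signals under the brightness limit of 23.3 left Fosb, Egr2 and Atf3 without a test, and Junb measured 20 and 24 on the BPA100 arrays.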

Other observations

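Several immediate-early genes that are often induced together with Fos and Jun varied less across the arrays than Fos. They were picked after their values were seen. Dusp1, the phosphatase that shuts off stress kinases, measured 292 and 311 in vehicle, 301 and 243 in BPA10 and 247 and 332 in BPA100. Zfp36, which speeds the decay of AU-rich RNAs, measured 135 and 124, 153 and 96, and 115 and 117. Like Fos, it was highest on vehicle replicate 1 and BPA10 replicate 1 and lowest on BPA10 replicate 2 and both BPA100 arrays. Btg2, an antiproliferative gene, measured 487 and 475, 426 and 481, and 499 and 411, and Ier5 measured 487 and 419, 424 and 538, and 456 and 503. On the arrays where Fos spanned 14.2-fold, none of these 4 spanned more than 1.59-fold. Others of the same list varied more than these 4. Rgs2, which limits G-protein signalling, measured 572 and 475, 259 and 582, and 184 and 859. Gadd45b, a stress-response gene, measured 255 and 224, 105 and 241, and 88 and 277. Both Rgs2 and Gadd45b were low on replicate 1 of each BPA group.

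The order with vehicle replicate 1 and BPA10 replicate 1 highest and BPA10 replicate 2 and both BPA100 arrays lowest was seen for 4 of the 7 tested genes, Fos, Jun, Egr1 and Ier2, and for 1.96% of all probe sets. The order was noticed in these genes first, so the share is a description.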
